A study of Rattus norvegicus with 9 samples.

Results

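The entries described here are rno_piR_009428 and rno_piR_000618, a pair of catalogued rat piRNAs (PIWI-interacting RNAs) whose sequences lie on opposite strands of the B1 repeat. They are 2 of the 5794 entries in a table of small RNAs from the hippocampal CA1 region, and 2 of the 512 entries that carry a catalogue name (rno_piR). They were picked by name, with their values in these libraries already known, so that their levels, their differences between groups and their ratio are given as a description and without a p-value for either entry.

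The tissue came from adult male Wistar rats of 7 to 8 weeks, in 3 groups of 3 libraries. One group is labelled HPC0h, which carries the hour 0 and whose abbreviation the labels do not expand. The labels do not say whether these animals also had ischemia. A further group is labelled tGCI26h, for transient global cerebral ischemia with the hour 26, and the remaining group is Sham, the control. The deposited values are normalised tags per entry, rounded to whole numbers, and they add up to between 961372 and 992081 in each library. The raw depth is unknown, and no counting interval is given.

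piRNAs are small RNAs bound by PIWI proteins and are best known from the germ line, where they silence transposable elements. In the ping-pong cycle of germ cells, a piRNA of 1 strand guides the cut of a transcript of the other strand, and the resulting pair of piRNAs overlaps by 10 bases at the 5′ ends. The piRNA that starts the cycle often begins with U and its partner often has A at position 10. B1 is a short interspersed repeat of rodent genomes, present in very many copies, that derives from the 7SL RNA and ends in an A-rich tail. A sense B1 fragment can come from a transcript of the repeat itself or from a gene transcript that contains a copy, and an antisense fragment from a transcript that runs through a copy in the other direction.

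The sequences are shown first because the pair is defined by them, 5′ to 3′ as deposited, with the bases that the partner complements in capitals.
rno_piR_009428: UACAAAGUGAGUUCCAGGACAGCCAGGGc
rno_piR_000618: CCCUGGCUGUCCUGGAACUCACUUUGUAg
Both are 29 nt long and both have 55.2% G or C. The reverse complement of rno_piR_000618 matched rno_piR_009428 over 28 bases with 0 mismatches. Positions 1 to 28 of each entry were complementary to positions 1 to 28 of the other, and 1 base was left over at each 3′ end. The 5′ ends thus overlapped by 28 bases and not by the 10 of a ping-pong pair. At an overlap of 10 bases, 9 of the 10 bases mismatched, and at every other offset of at least 10 bases there were 6 mismatches or more. rno_piR_009428 begins with U and has A at position 10. rno_piR_000618 begins with C and has U at position 10.

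Among the 512 catalogued entries, 368 (71.9%) began with U, 166 (32.4%) had A at position 10 and 122 (23.8%) had both. Among the 95 catalogued entries with a value above 0 in some library, 38 began with U and 16 (16.8%) had both, the sense entry among them. Over all 5794 entries, 52 pairs had an ungapped overlap of at least 12 bases with 0 mismatches over its whole length. In 14 of these both partners had a value above 0. Pairs with a long complementary run but a mismatch elsewhere in the overlap, such as rno_piR_005836 with rno_piR_009428, were not counted. The B1 pair had the longest such overlap of the 52. Of the 13 pairs with an overlap of 20 bases or more, it was the single pair in which both partners were detected, and likewise of the 22 pairs in which both partners are catalogued. In 18 pairs of the table the first 10 bases of both partners were complementary, and in 2 of these both partners had a value above 0.

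No shorter or longer form of either sequence had a value. Apart from the members, 5 entries, all catalogued, matched a member on its own strand over at least 18 bases with at most 2 mismatches, and each of the 5 was blank or listed at 0 in all 9 libraries. The relatives closest in position are rno_piR_009530 and rno_piR_005836, printed because they cover nearly the same stretch of the repeat, with the differing bases in capitals.
rno_piR_009530: uacaGagugaguuccaggacagcUagggc
rno_piR_005836: gUccuggcuguccuggaacucacuuugCa
Relative to rno_piR_009428, and counted from its 5′ end, rno_piR_009530 differs by A5G and C24U over all 29 bases. Relative to rno_piR_000618, rno_piR_005836 differs by C1U and U27C over 28 bases and starts 1 base earlier. rno_piR_001919, rno_piR_001921 and rno_piR_008078 overlapped a member by 18 or 19 bases. None of the 5282 entries without a catalogue name shared a run of 12 bases with either member on either strand. For comparison, 43 of the 95 detected catalogued entries had another detected entry that shared at least 18 bases, and 52, including the members, had none. How reads that match several places or several entries were counted is not given in the sources used here.

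The assignment to B1 was taken over from an earlier sequence match, and no repeat annotation was used here. Copies of the joined 30-base stretch were sought in the RefSeq windows of 250 bases before to 50 bases after each gene start (build GRCr8). No window held either member with at most 1 mismatch on either strand. With at most 2 mismatches, 5 of 33469 windows (0.0149%) held the sense sequence and 8 (0.0239%) the antisense sequence, read on the strand that matches each. With at most 3 mismatches, the sense sequence had 18 copies, 10 on the strand of the gene and 8 on the opposite strand. Of these 18 copies, 11 had G at the position of base 5 of rno_piR_009428, 5 had T and 2 had A, the base of the entry itself. A stretch around a copy is shown on the strand of the sense entry, with the 30 bases that the members span in capitals. It is printed because it holds near matches to both members, on opposite strands.
Upstream of Cldnd2, GRCr8 chr1:102984964-102985093, plus strand: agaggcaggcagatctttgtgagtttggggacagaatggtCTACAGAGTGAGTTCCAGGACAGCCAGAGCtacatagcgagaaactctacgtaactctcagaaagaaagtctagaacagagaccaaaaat
Upstream of LOC134479402, GRCr8 chr6:101192057-101192186, plus strand: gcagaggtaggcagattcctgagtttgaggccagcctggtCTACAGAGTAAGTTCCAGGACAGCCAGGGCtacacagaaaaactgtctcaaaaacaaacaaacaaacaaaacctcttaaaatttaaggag
Both copies differed from rno_piR_009428 at 2 bases, and their centres lay 103 and 175 bases before the gene start. The share of A was taken over bases 21 to 80 on either side of the stretch, in the 10 copies whose windows held at least 40 of those bases on both sides. Its median was 41.7% after the stretch and 27.1% before it, and 9 of the 10 copies had more A after it. That is the side on which a B1 element read in the sense direction carries its A-rich tail. None of 1143 rat miRNA sequences of RefSeq overlapped the members by 18 bases with at most 2 mismatches.

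Before the values, the libraries need a description. In 7 columns the heading holds 3 numbers, and these libraries are called HPC0h a, b and c, tGCI26h a and b, and Sham a and b. The other 2 columns, 1 in tGCI26h and 1 in Sham, have a heading without numbers and are called tGCI26h u and Sham u. Whether libraries are animals, pools or repeats is not stated, so the spread between them may be technical. The unnumbered libraries stood apart: tGCI26h u listed 708 entries above 0 and Sham u listed 1201, against 2558 to 2936 in the numbered libraries. They also held almost no low values. In tGCI26h u, 704 of the 708 values were 34 or more, and the 4 lower ones all belonged to catalogued piRNAs. In Sham u, 1195 of 1201 values were 10 or more, and the 6 lower ones, from 1 to 9 tags, all belonged to catalogued piRNAs, rno_piR_000618 among them.

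The members stayed near the numbered libraries where most entries did not. Over the 1071 entries with a mean of at least 10 tags in the numbered libraries, the median distance of the unnumbered library from the numbered mean of its group was 4.43 in log2 in tGCI26h and 2.53 in Sham. Blank cells were read as 0 here. Since tGCI26h u held only 708 entries above 0, its median distance includes entries absent from that library. For rno_piR_009428 the log2 difference of the unnumbered library from the numbered mean was 0.04 in tGCI26h, where 3 of the 1071 entries, itself included, were as close, and -0.11 in Sham, where 29 were. For rno_piR_000618 it was -0.13 in tGCI26h, where 11 were as close, and 0.42 in Sham, where 128 were. An unnumbered value was counted as near if it lay between the lowest numbered value of its group divided by 1.5 and the highest multiplied by 1.5. Of the 16 catalogued entries above 0 in both unnumbered libraries, 9 were near in both, and both members were among these 9. Of the 404 other entries, 10 were near in both. How the values of the unnumbered libraries were made is not given in the sources used here, and the origin of this difference was not tested. Results are therefore given with these libraries, and most of them also from the 7 numbered libraries alone. The values of the members are given library by library.

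**Figure D1:**
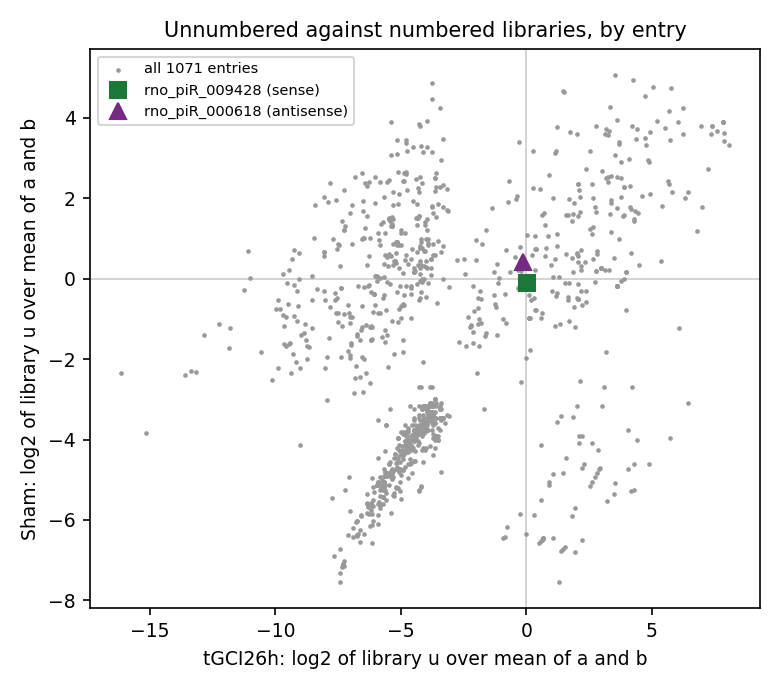
Each point is an entry with a mean of at least 10 normalised tags in the numbered libraries; the x axis gives the log2 of tGCI26h u over the mean of tGCI26h a and b, the y axis the log2 of Sham u over the mean of Sham a and b, both on values plus 1. The square (rno_piR_009428) and the triangle (rno_piR_000618) lie close to 0 on both axes. The median distance from 0 over the 1071 entries, with blank cells read as 0, was 4.43 in tGCI26h and 2.53 in Sham.

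The sense entry, rno_piR_009428, was lowest in HPC0h. In HPC0h a, b and c it had 76, 67 and 58 normalised tags. The tGCI26h libraries a, b and u had 250, 233 and 248, against 200, 203 and 186 in Sham a, b and u. The 3 groups did not overlap, and the order was HPC0h below Sham below tGCI26h. The means were 67.0 ± 9.0 in HPC0h, 244 ± 9.29 in tGCI26h and 196 ± 9.07 in Sham (SD, n = 3 each). The step between tGCI26h and Sham was small beside the other: the means differed by 47.3 tags, or 1.24-fold, while the Sham mean was 2.93-fold that of HPC0h and the tGCI26h mean 3.64-fold.

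The antisense entry, rno_piR_000618, was lowest in Sham. In HPC0h a, b and c it had 16, 14 and 10 tags. The tGCI26h libraries a, b and u had 47, 30 and 35, against 3, 4 and 5 in Sham a, b and u. The groups again did not overlap, now in the order Sham below HPC0h below tGCI26h. The means were 13.3 ± 3.06 in HPC0h, 37.3 ± 8.74 in tGCI26h and 4.00 ± 1.00 in Sham (SD, n = 3 each). The HPC0h mean was 3.33-fold and the tGCI26h mean 9.33-fold that of Sham. In the numbered libraries these folds were 3.81 and 11.0. Rounding to whole tags weighs more here than for the sense entry, since the Sham values are 5 tags or fewer.

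**Figure D2:**
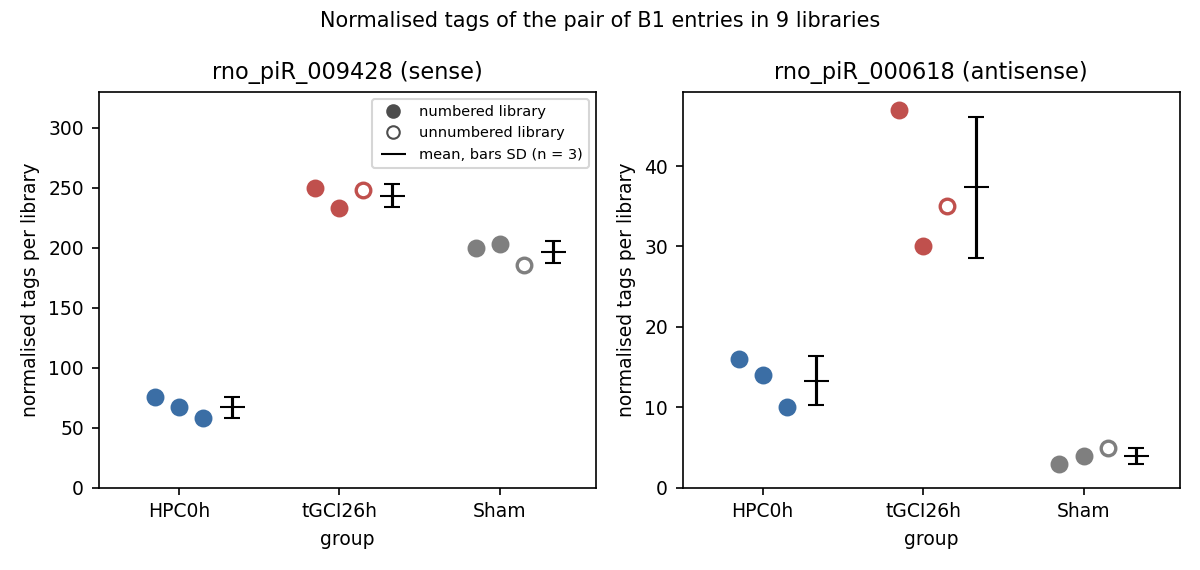
Normalised tags (y axis) of rno_piR_009428 (left) and rno_piR_000618 (right) in HPC0h, tGCI26h and Sham; each point is a library, open points are the unnumbered libraries, and the bars give the mean and SD (n = 3). The sense entry is lowest in HPC0h, at 58 to 76, and the antisense entry is lowest in Sham, at 3 to 5; both are highest in tGCI26h, at 233 to 250 and 30 to 47.

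In units of log2(value + 1), where differences between low values come out too small, the HPC0h against Sham differences of the members had opposite signs. They were -1.54 ± 1.04 (SE) for rno_piR_009428 and 1.52 ± 0.99 for rno_piR_000618. In tGCI26h against Sham they were 0.31 ± 1.04 and 2.93 ± 0.99. In HPC0h against tGCI26h both were below 0, at -1.86 ± 1.04 and -1.42 ± 0.99. The standard errors come from a limma fit to all entries whose mean was 1 tag or more. They are moderated by the spread of all those entries and do not measure the spread of the members alone. With blank cells as missing values instead of 0, the HPC0h against Sham differences were unchanged. Their standard errors were then 0.18 for rno_piR_009428 and 0.26 for rno_piR_000618. In the 7 numbered libraries the HPC0h against Sham differences were -1.58 ± 0.13 and 1.66 ± 0.29, those of tGCI26h against Sham were 0.26 ± 0.14 and 3.11 ± 0.32, and those of HPC0h against tGCI26h were -1.84 ± 0.13 and -1.45 ± 0.29, for the sense and the antisense entry in this order. The small positive difference of rno_piR_009428 in tGCI26h against Sham turned to -0.37 with TMM, -0.17 with median-of-ratios and -0.034 with quantile normalisation of all 9 libraries, whereas the signs of the other differences held under each alternative run. The 3 comparisons share libraries and are not independent of each other.

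As background, limma called 0 of 2824 entries (0%) at an adjusted p below 0.05 in each comparison with all 9 libraries, so neither member was called. This holds with blank cells read as 0. Read as missing values, they left 3 of the 2824 entries in the fit called in HPC0h against Sham. In tGCI26h against Sham 3 of 2824 were called, and 1 of 2824 in HPC0h against tGCI26h. How many of the 2824 kept enough values to be compared was not counted. In each of these comparisons 1 member was among them. Entries with an unadjusted limma p below 0.05 numbered 21 (0.744%) in HPC0h against Sham, 39 (1.38%) in tGCI26h against Sham and 8 (0.283%) in HPC0h against tGCI26h. In the 7 numbered libraries, 36 of 2608 entries (1.38%) were called in HPC0h against Sham, 13 of them lower (0.498%), rno_piR_009428 included. In tGCI26h against Sham 22 (0.844%) were called, 13 of them higher (0.498%), rno_piR_000618 included. In HPC0h against tGCI26h 12 (0.46%) were called, 3 of them lower (0.115%), rno_piR_009428 included. This last call was lost with TMM and with median-of-ratios scaling of the numbered libraries, under which the difference of rno_piR_009428 was -1.84 and -1.88. The other calls of the members in the numbered libraries held under both scalings and under quantile normalisation. Since the members were picked with these results known, their calls add no support. The difference of rno_piR_009428 between tGCI26h and Sham, and those of rno_piR_000618 that involve HPC0h, were not called in the numbered libraries. The median log2 difference over all entries was 0.21 in HPC0h against Sham, 0.21 in tGCI26h against Sham and 0 in HPC0h against tGCI26h in the numbered libraries. With all 9 libraries these medians were 0.53, 0.14 and 0.72.

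**Figure D3:**
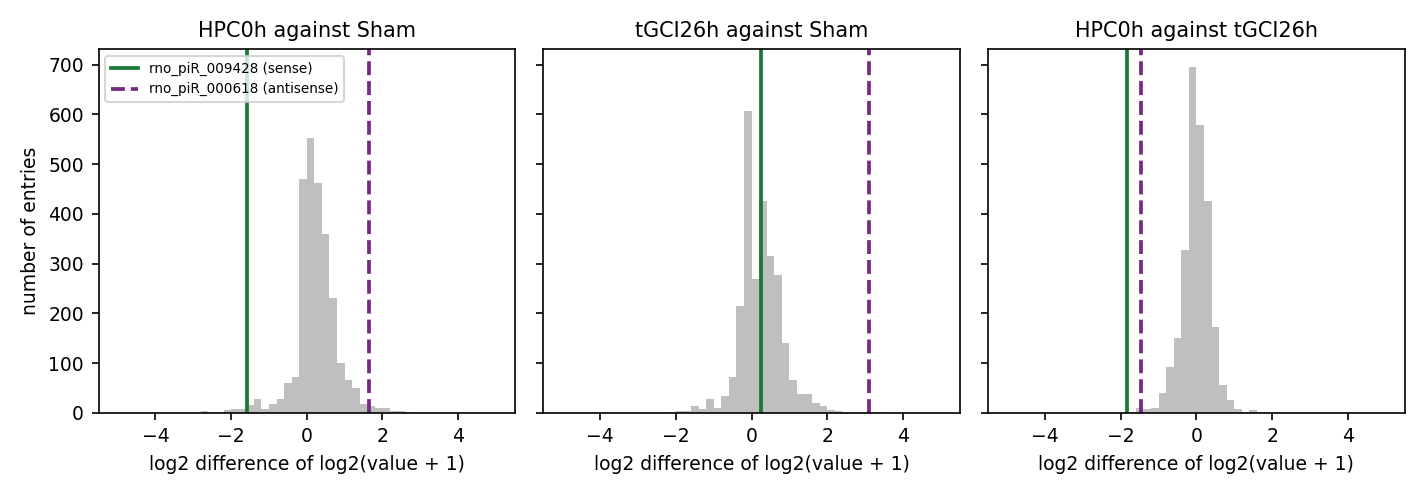
Histograms of the log2 difference (x axis, log2(value + 1) scale) over the 2608 entries tested in the 7 numbered libraries, with the number of entries on the y axis, for 3 comparisons; the solid line marks rno_piR_009428 and the dashed line rno_piR_000618. The lines lie on opposite sides of 0 in HPC0h against Sham, at -1.58 and 1.66, and on the same side in HPC0h against tGCI26h, at -1.84 and -1.45.

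Groups that do not overlap were counted in the same way with all 9 libraries. In HPC0h against Sham 23 of 2824 entries (0.814%) lay wholly lower, as the sense entry did, and 368 (13%) wholly higher, as the antisense entry did. In tGCI26h against Sham 64 entries (2.27%) lay wholly higher, both members among them. In HPC0h against tGCI26h 37 (1.31%) lay wholly lower, again with both members. The full order HPC0h below Sham below tGCI26h, with no overlap, was found in 1 entry (0.0354%), which was rno_piR_009428 itself. The order Sham below HPC0h below tGCI26h was found in 3 entries (0.106%): rno_piR_000618, rno_piR_011022 and rno_piR_017990. These shares are over 2824 entries, but tGCI26h u held only 708 entries above 0 and Sham u 1201. An entry at 0 in tGCI26h u could not lie wholly higher in tGCI26h, so most entries could take neither order. The shares thus do not show how rare these orders are. The 7 numbered libraries form smaller groups, which separate more easily, and lack the 5086 blanks of tGCI26h u and 4593 of Sham u. How much each bears on the shares was not tested. In these 7 libraries the matching shares were 4.03% and 18% in HPC0h against Sham. They were 27.8% in tGCI26h against Sham and 3.34% in HPC0h against tGCI26h. There 4 entries (0.153%) had the first order and 10 (0.383%) the second.

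The ratio of sense to antisense tags separated Sham from both other groups. In HPC0h a, b and c it was 4.75, 4.79 and 5.80. The tGCI26h libraries a, b and u gave 5.32, 7.77 and 7.09. In Sham a, b and u it was 66.7, 50.8 and 37.2. HPC0h and tGCI26h overlapped in this ratio, while every Sham value lay above every value of both. The ratio was not computed for other pairs of entries, so no background share stands beside this. The means were 5.11 ± 0.596 in HPC0h, 6.72 ± 1.26 in tGCI26h and 51.5 ± 14.7 in Sham (SD, n = 3 each). In the numbered libraries they were 6.54 in tGCI26h and 58.7 in Sham (n = 2 each). The ratio is not altered by any factor applied to a whole library, but it depends on rounding: values that round to the printed tags allow 57.0 to 80.2 in Sham a and 4.58 to 4.94 in HPC0h a. The lowest ratio that rounding allows in Sham was 33.7, in Sham u, and the highest that it allows in the other groups was 7.92, in tGCI26h b.

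**Figure D4:**
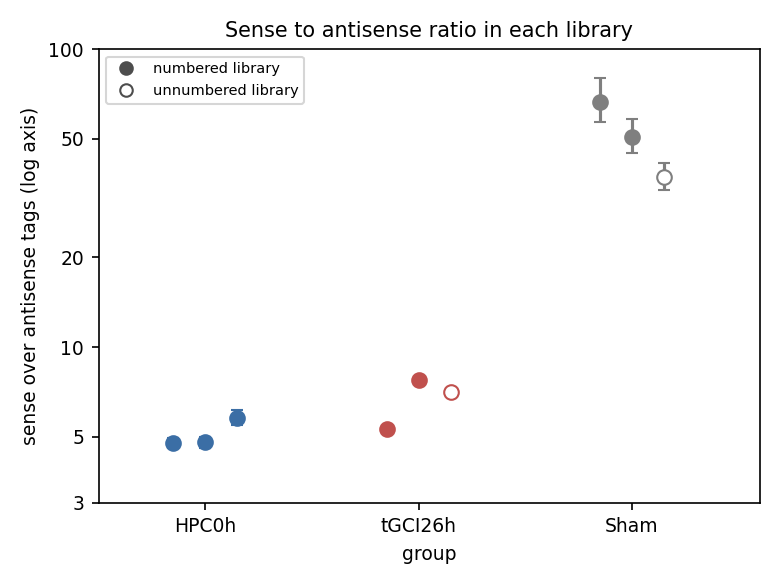
Ratio of rno_piR_009428 to rno_piR_000618 tags (y axis, logarithmic) in each library of HPC0h, tGCI26h and Sham; open points are the unnumbered libraries and the bars give the range that rounding to whole tags allows. HPC0h lies at 4.75 to 5.80 and tGCI26h at 5.32 to 7.77, overlapping each other, and Sham at 37.2 to 66.7.

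Expressed as a share, the antisense entry made up 17.4%, 17.3% and 14.7% of the pair in HPC0h a, b and c. It made up 15.8%, 11.4% and 12.4% in tGCI26h a, b and u, against 1.48%, 1.93% and 2.62% in Sham a, b and u. These shares overlapped between HPC0h and tGCI26h, while the totals of the pair did not. The pair summed to 92, 81 and 68 tags in HPC0h, to 297, 263 and 283 in tGCI26h and to 203, 207 and 191 in Sham. The sum was thus lowest in HPC0h and highest in tGCI26h, with no overlap between groups. The sense entry made up most of each sum and had the same order. Sums of other pairs were not computed. As a share of the library total it was at most 0.03% in any library.

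Among the catalogued entries the members stood at different ranks. The sense entry ranked between 17 and 19 by tags in the HPC0h libraries, between 8 and 10 in tGCI26h and between 9 and 12 in Sham. The antisense entry ranked between 30 and 37 in HPC0h, between 20 and 27 in tGCI26h and between 44 and 48 in Sham. The numbered libraries listed 73 to 77 catalogued entries above 0, tGCI26h u listed 24 and Sham u listed 47, so that ranks in the last 2 count fewer entries. Of the 70 catalogued entries tested in the numbered libraries, 3 were called higher and 2 lower in HPC0h against Sham, at a median log2 difference of 0.18. In tGCI26h against Sham 6 were called higher and 0 lower, at a median of 0.25, and in HPC0h against tGCI26h 0 were called higher and 1 lower, at a median of -0.09. That last entry was rno_piR_009428. Of all 2608 entries tested there, 23 were called higher and 13 lower in HPC0h against Sham. The counts were 13 and 9 in tGCI26h against Sham, and 9 and 3 in HPC0h against tGCI26h. With all 9 libraries, 0 of 81 catalogued entries were called by limma in each comparison, while 1, 4 and 0 had an unadjusted p below 0.05, in the same order of comparisons. Their medians were then 0.14, 0.11 and 0.84, so that the median in HPC0h against tGCI26h had the opposite sign. The median of all tested entries in that comparison also rose, from 0 in the numbered libraries to 0.72 with all 9.

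How alike the members were in profile depended on the libraries used. Profiles were compared as log2(value + 1) centred on the entry's own mean over the 9 libraries, and likeness was measured by the root mean square difference over those libraries among entries with a mean of at least 10 tags. The members differed from each other by 1.37 log2 units. By this measure rno_piR_000618 stood at rank 206 of 1336 in likeness to rno_piR_009428, and rno_piR_009428 at rank 127 in likeness to rno_piR_000618. In the 7 numbered libraries the members differed by 1.41, and these ranks were 1305 and 1271, among the least alike of the entries. Ranks in the numbered libraries use the same 1336 entries, chosen by their mean over all 9 libraries. Only 1071 entries averaged at least 10 tags in the numbered libraries, so part of the set passed through the unnumbered libraries alone. How much this bears on the ranks was not tested. The entries most like the antisense member were rno_piR_017990, at 0.38, and rno_piR_011022, at 0.52. rno_piR_017990 held 25, 27 and 22 tags in HPC0h, 63, 64 and 72 in tGCI26h and 12, 9 and 7 in Sham (a, b and then c or u). rno_piR_011022 held 120, 126 and 112 in HPC0h, 208, 174 and 153 in tGCI26h and 16, 18 and 20 in Sham. Both also ranked 1 and 2 in the numbered libraries alone, and both belong to the 9 catalogued entries whose unnumbered values lay near the numbered ones. Next came novel_9031_x397, novel_1469_x5432 and novel_1897_x3699, at 0.90 to 0.91, which each held 1503 tags in tGCI26h u and ranked 103 to 106 in the numbered libraries.

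The entries nearest to the sense member over the 9 libraries were rno_piR_000746, at 0.59, and rno_piR_014971, at 0.64, followed by novel_10722_x315, novel_3169_x1751 and novel_2820_x2065 at 0.71, 0.72 and 0.74. rno_piR_000746 held 102, 140 and 69 tags in HPC0h, 120, 222 and 339 in tGCI26h and 146, 144 and 184 in Sham, so its groups overlapped. rno_piR_014971 held 60, 71 and 76 in HPC0h, 125, 137 and 126 in tGCI26h and 65, 72 and 83 in Sham, and did not share the low HPC0h level. In the numbered libraries these 5 ranked between 18 and 177 in likeness, so other entries were nearer there. The median distance over all 1336 entries was 2.14 from the sense and 2.20 from the antisense member with all 9 libraries, and 0.94 and 1.19 in the numbered libraries. The distance between the members thus lay below these medians with all libraries and above them in the numbered libraries.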

How the data were processed

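Small RNA of total RNA from CA1 was ligated to adaptors, copied, amplified, selected for inserts near piRNA length and sequenced on an Illumina HiSeq, per the labels' protocols. cutadapt 1.9.3 and Novoalign 3.02.12 are named in the submitters' processing notes without roles. The deposited table holds normalised tags as whole numbers, treated here as a score; how the authors normalised them is not given in the sources used here. Genome build and piRNA catalogue are not given there either. The P columns were read as HPC0h from the 0 in their headings. Blank cells were read as 0.

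Differences were fitted with limma 3.58.1 (R 4.3.3, trended variance) to log2(value + 1) of entries averaging 1 tag or more, all 3 groups in 1 fit, with Benjamini-Hochberg adjustment at 0.05; the script was tested on simulated data. TMM and median-of-ratios factors were computed directly. Sequences were compared without gaps. Members, lists, alternatives and the naming rule (members, detected relatives, the 5 nearest profiles of each) were chosen with earlier results of these data known. Relatives at 0 and the catalogued entries with low unnumbered values or a shared order were named after their values were seen.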

Additional observations from a re-analysis of the deposited data

How the results depend on the processing

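The signs of the members' log2 differences held under every alternative run, except for rno_piR_009428 in tGCI26h against Sham, which turned to -0.37 with TMM, -0.17 with median-of-ratios and -0.034 with quantile normalisation of all 9 libraries. In the 7 numbered libraries with the same scalings (combinations chosen after the data had been seen) it was 0.018, 0.064 and 0.19, so its direction is not settled. With TMM, median-of-ratios and quantile normalisation of all libraries, rno_piR_009428 moved to -1.33, -1.25 and -1.24 in HPC0h against Sham and to -0.96, -1.08 and -1.21 in HPC0h against tGCI26h. rno_piR_000618 moved to 2.32 and 2.49 with TMM and median-of-ratios in tGCI26h against Sham, and to -0.58, -0.70 and -1.78 with the 3 scalings in HPC0h against tGCI26h. In the numbered libraries rno_piR_009428 moved to -1.82 with both TMM and median-of-ratios in HPC0h against Sham. The cause was not tested. These scalings moved the median of all entries by up to 0.23 in log2. A pseudocount of 10 gave 0.73, 1.74 and -1.01 for rno_piR_000618 in HPC0h against Sham, tGCI26h against Sham and HPC0h against tGCI26h, and mean log2 ratios of 1.72 in HPC0h and 3.88 in Sham, against 2.26 and 5.32 with a pseudocount of 1; quantile normalisation gave 3.00 in HPC0h.

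Leaving out each library in turn, rno_piR_009428 ranged from -1.64 to -1.45, 0.27 to 0.34 and -1.95 to -1.76 in HPC0h against Sham, tGCI26h against Sham and HPC0h against tGCI26h, and rno_piR_000618 from 1.36 to 1.69, 2.76 to 3.08 and -1.56 to -1.24. The mean log2 ratio ranged from 2.18 to 2.30 in HPC0h, 2.59 to 2.85 in tGCI26h and 5.16 to 5.50 in Sham, and the count of called entries stayed at 0. In the same order of comparisons, called entries numbered 36, 22 and 12 in the numbered libraries. There they numbered 25, 9 and 0 with TMM, 22, 9 and 0 with median-of-ratios, and 24, 8 and 1 with quantile normalisation. With blanks as missing values in all 9 libraries they numbered 3, 3 and 1 of the 2824 entries in the fit, 1 member among them each time. Relatives numbered 2 and 8 at 1 and 3 mismatches instead of 5, none above 0, and copies near gene starts 0 and 18 instead of 5. No paired analysis was possible because the columns carry no replicate number. Depth is unknown, so the Sham values of 3 to 5 tags have no counting error attached.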

Other observations

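Catalogued entries below every value of the entries without a catalogue name were found in both unnumbered libraries. In tGCI26h u the lowest value of those entries was 34, and rno_piR_022845, rno_piR_000553, rno_piR_022116 and rno_piR_025697 held 2, 3, 7 and 8 tags. In Sham u the lowest value of those entries was 10, and rno_piR_000553 and rno_piR_025697 held 1 tag each, rno_piR_022845 held 3, rno_piR_000618 held 5, rno_piR_017990 held 7 and rno_piR_022116 held 9. rno_piR_000618 was the only entry with 35 tags in tGCI26h u and the only one with 5 in Sham u. Each of these values lay between the lowest numbered value of its group divided by 1.5 and the highest multiplied by 1.5. In the numbered libraries, 1588 to 1869 entries held 1 to 9 tags. The origin of these low values was not tested.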
